A study of Mus musculus with 6 samples.

Results

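The genes described here are 10 core members of the Notch pathway, chosen by name and read from the deposited table of 13024 genes, in which all 10 were present. They are the receptors Notch1, Notch2 and Notch3, the ligands Jag1 and Dll1, the nuclear effector Rbpj, the target genes Hes1, Hey1 and Hes5, and Hes6, a relative of the Hes genes. RNA-Seq was done on lenses dissected from E14.5 mouse embryos of a mixed C57BL/6 and FVB background, in pools of 10 lenses from 5 embryos, with 3 control pools and 3 Gata3 CKO pools. CKO embryos were Gata3 f/f and carried Pax6-Cre, a transgene in which the ocular epithelial enhancer and the P0 promoter of Pax6 drive Cre in the precursors of the lens and cornea and in scattered retinal cells. Control embryos carried no Cre, and their Gata3 genotype is given as f/wt, f/f or wild type in different places of the study's text and labels, so they are called control. The design compares the lens transcriptome with and without this transcription factor, and only the CKO embryos carried the transgene.

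In Notch signalling, a Delta or Jagged ligand on 1 cell binds a Notch receptor on its neighbour, the receptor is cut by Adam10 and then by γ-secretase, and the released intracellular part joins Rbpj on DNA to switch on genes of the Hes and Hey families. In the developing lens, Jag1 made by fibre cells is known to signal to the epithelium, where Notch activity keeps cells dividing and delays their differentiation into fibres. In the neural retina, Dll1, Notch1, Hes1 and Hes5 are known for holding progenitors back from becoming neurons. The retina lies against the lens, so RNA of both tissues can enter a lens pool.

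Levels are given as CPM, the count of a gene scaled to the size of its library. Each log2 fold change sets CKO against control and is followed by its standard error (SE), and p-values are from edgeR's quasi-likelihood test over all 12879 genes that passed a filter on low counts. All 10 Notch genes passed it. A library held 15157230 to 18811104 counts on genes, and the 10 genes had between 476 and 6142 counts each in a library. The Gata3 count was higher in the libraries labelled CKO (894 to 1064) than in control (156 to 386). Counts per gene do not show the deleted exon 4, so the labels could not be checked here by that exon. The study reports that its RNA-Seq showed the loss of this exon in mutant lenses. It also reports, from qPCR with primers reaching into the exon, that RNA of the gene was strongly reduced. The direction of each difference given here is that of the libraries labelled CKO. Of the 16 lens fibre markers, all 16 had a log2 fold change below 0 in those libraries, with a median of -0.97. For 7 of them the groups did not overlap, against 8.36% of all genes tested. The list holds Dnase2b, Bfsp2, Lenep and Birc7, which the study reported as lower in CKO from these same libraries. Its fall is therefore no independent check of the labels. Markers of lens fibres (16 of 16 genes) and of lens epithelium (9 of 9) were present in every library, and so were all 24 markers of retinal progenitors and neurons. Control replicate 2 stood apart: the 16 crystallins took 16.5% of its counts, the highest share, against 5.47% in the lowest library. Each of the 16 lens fibre markers, 3 of them crystallins, was highest in this library, and each of the 24 retinal markers was lowest in it. Control replicate 1 and CKO replicate 2 held the most RNA of periocular mesenchyme markers, 2394 and 4206 CPM summed over 11 genes against 319 to 685 CPM in the other libraries.

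No difference between CKO and control was detected for any of the 10 Notch genes when the 3 pools of each group were compared without a covariate. In edgeR, 0 of the 10 passed an adjusted p of 0.05, against 0% of all genes tested, and DESeq2 also called 0 of the 10, against 0.66% of all genes. At an unadjusted p of 0.05 in edgeR, again 0 of the 10 passed, against 3.55% of all genes. The 3 control and 3 CKO values overlapped for each gene, so that 0 of the 10 had separate groups, against 8.36% of all genes. The log2 fold change was above 0 for 6 of the 10, against 50.6% of all genes, with a median of 0.062 against 0.0019 over all genes tested, and Notch1 changed sign, to 0.0076, when crystallins were left out of the library sizes. It lay within 0.2 of 0 for 9 of the 10 genes, Rbpj being the exception, as it did for 79.3% of all genes. The 95% intervals differed in width between genes: that of Notch3, the narrowest, ran from a 0.945-fold to a 1.17-fold level in CKO, that of Hey1 from 0.862 to 1.25, that of Jag1 from 0.531 to 1.63 and that of Hes5 from 0.773 to 1.69.

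**Figure D1:**
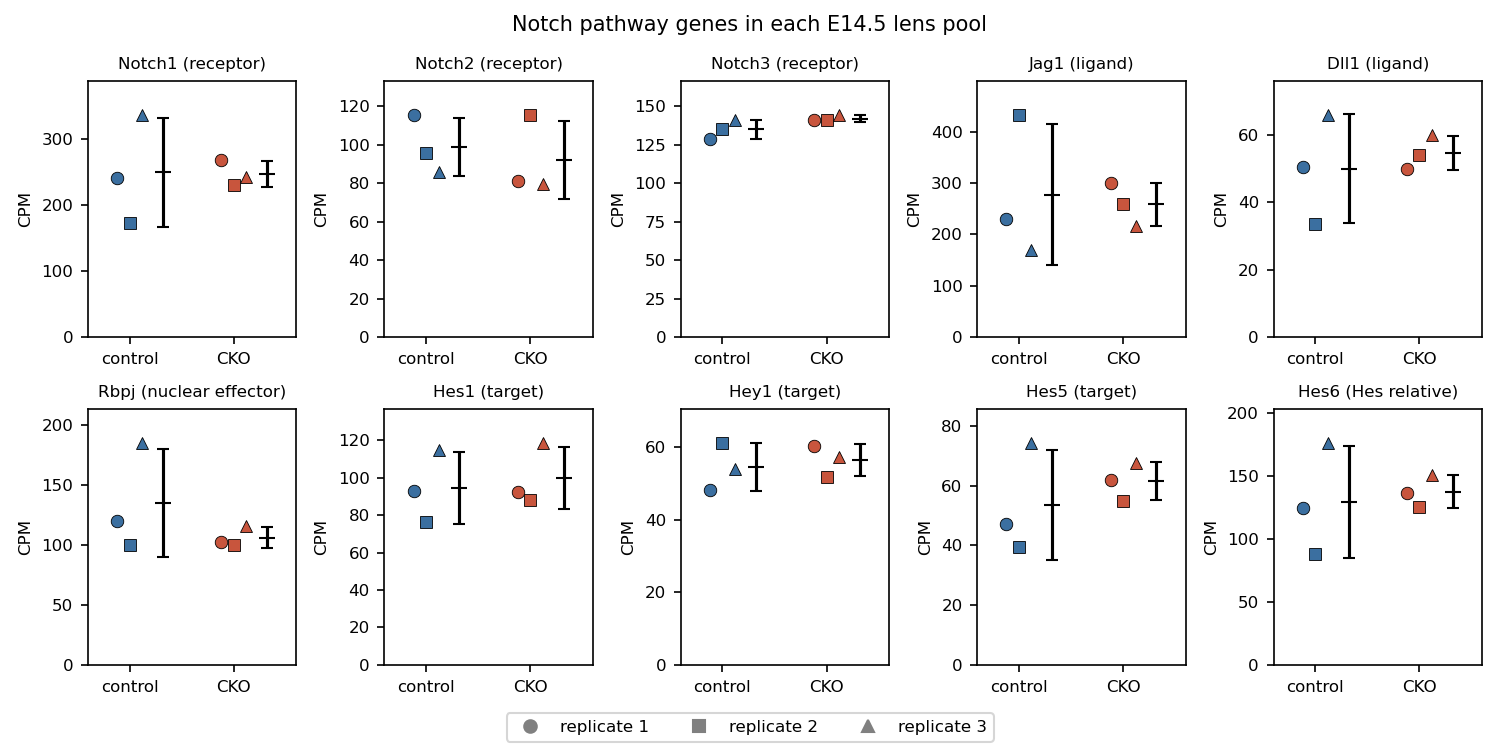
CPM (vertical axis, linear, from 0) of each Notch pathway gene in the 3 control and 3 CKO pools; symbols give the replicate number, and the bars beside them the mean and SD of 3 pools. The control values of Jag1 run from 170.1 to 433 CPM and enclose all CKO values, while those of Notch3 lie within 129 to 141 CPM.

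Among the receptors, Notch1 (chr2:26457903-26516663, reverse strand, mm10), the main receptor of neural progenitors, was the most abundant in CPM. Control replicates 1, 2 and 3 were at 242, 172 and 337 CPM, and pools are given in this order throughout. The CKO pools were at 269, 231 and 243 CPM. All CKO values fell between the lowest control pool, replicate 2, and the highest, replicate 3. Means were 250.4 ± 82.8 CPM in control and 248 ± 19.6 in CKO (SD, n = 3). These differed by a log2 fold change of -0.016 (SE 0.23, unadjusted p = 0.948 in edgeR).

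Notch2 (chr3:98013527-98150361, forward strand) is a receptor found in many epithelia, the lens among them. Its level was 115, 95.4 and 85.7 CPM in control. In CKO it was 81.2, 115 and 79.5 CPM. The highest pools were control replicate 1 and CKO replicate 2, which were also the pools with the highest levels of mesenchyme, pigment cell and surface ectoderm markers. CKO and control differed by a log2 fold change of -0.10 (SE 0.18, unadjusted p = 0.591), by -0.15 with the mesenchyme level as a covariate, and by -0.16 with both pools left out, an alternative added after seeing the data.

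Notch3 (chr17:32120820-32166852, reverse strand), a receptor best known from the mural cells of vessels, was the steadiest of the 10 genes. It stood at 129, 135 and 141 CPM in control and at 141, 141 and 144 CPM in CKO. Its highest library was only 1.12 times its lowest, although the summed mural cell markers (8 of 10 genes analysed, none at 0) ranged from 107.9 to 218 CPM in control and from 107.2 to 202 CPM in CKO. Its log2 fold change, 0.072 (SE 0.065, unadjusted p = 0.305), had a 95% interval from -0.082 to 0.23, or a 0.945-fold to 1.17-fold level, the narrowest of the 10.

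Of the ligands, Jag1 (chr2:137081456-137116644, reverse strand), the ligand of lens fibre cells, varied most between pools. Control pools were at 229.7, 433 and 170.1 CPM. CKO pools were at 299.6, 260.0 and 215 CPM. The highest and the lowest value were both control pools, replicate 2 and replicate 3, a ratio of 2.54. Means were 278 ± 138 CPM in control and 258 ± 42.1 in CKO (SD, n = 3). The groups differed by a log2 fold change of -0.10 (SE 0.34, unadjusted p = 0.771), which went to 0.38 without control replicate 2 and to -0.36 without control replicate 3.

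Dll1 (chr17:15367354-15376872, reverse strand), the Delta ligand of differentiating neural cells, had the opposite order in the control pools. It was at 50.3, 33.5 and 65.9 CPM in control and at 49.9, 54.1 and 60.0 CPM in CKO. Control replicate 2 was the lowest pool and control replicate 3 the highest. The groups were 0.13 apart on the log2 scale (SE 0.23, unadjusted p = 0.597).

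Rbpj (chr5:53466152-53657362, forward strand) encodes the DNA-binding protein on which all Notch receptors converge. Its control pools were at 120.4, 99.6 and 185 CPM. The CKO pools were at 102, 99.9 and 116 CPM. One control pool, replicate 3, stood above the other 5 libraries, and control replicate 2 lay level with the CKO pools. The means were 135 ± 44.8 CPM in control and 106 ± 8.81 in CKO (SD, n = 3). With -0.35 (SE 0.22, unadjusted p = 0.167), Rbpj had the largest log2 fold change of the 10, and it was -0.051 without control replicate 3. Without control replicate 2 it was -0.51. Fragments of Rbpj may be shared with Rbpj-ps3, a processed pseudogene with 99.7% identity over 1441 aligned bases, so its count is uncertain.

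Hes1 (chr16:30064384-30067796, forward strand) is a repressor that Notch switches on in most tissues. It was at 93.1, 76.3 and 115 CPM in control and at 92.6, 88.2 and 119 CPM in CKO. Replicate 3 was the highest pool in both groups. For Hes1 the log2 fold change was 0.076 (SE 0.18, unadjusted p = 0.683).

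Hey1 (chr3:8663359-8667256, reverse strand), a target gene of the Hey family, was at 48.2, 61.2 and 54.0 CPM in control and at 60.3, 51.8 and 57.2 CPM in CKO. The groups covered nearly the same range, and the highest library was 1.27 times the lowest. A log2 fold change of 0.052 was found (SE 0.11, unadjusted p = 0.657).

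Hes5 (chr4:154960923-154962371, forward strand), a target that follows Notch activity closely in neural progenitors, was at 47.1, 39.4 and 74.4 CPM in control. In CKO it was at 62.0, 54.8 and 67.6 CPM. Control replicates 1 and 2 were below all CKO pools, and control replicate 3 was above them. The group difference of 0.19 on the log2 scale (SE 0.24, unadjusted p = 0.438) was 0.51 without control replicate 3 (unadjusted p = 0.00676, adjusted p = 0.414). How many of all genes had so low an unadjusted p without that pool was not counted.

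Hes6 (chr1:91411483-91414038, reverse strand) is known to oppose Hes1 and to favour the differentiation of neurons. Its level was 124, 87.7 and 177 CPM in control and 136, 125 and 151 CPM in CKO. Again the control pools held both extremes. For Hes6 the groups differed by 0.084 on the log2 scale (SE 0.24, unadjusted p = 0.737). In exact two-sided permutation tests of each of the 10 genes over the 6 pools, p ranged from 0.3 for Notch3 to 1 for Jag1, where the smallest p that 3 pools against 3 allow is 0.1.

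The promoters of these genes were searched for the letters to which Rbpj is known to bind, because Hes5 is a standard readout of its activity. RefSeq windows of GRCm38.p6, the assembly of mm10, each with 250 bases before and 50 after a gene's start, were available for 8 of the 10 genes. Hes1 and Hey1, the other target genes among the 10, had no window and were not searched. The motif GTGGGAA, on either strand, was found in 6.38% of all 32851 windows, and 0.256% held it 2 or more times. Among the 8 genes, Hes5 alone held it, with 2 matches, and so did 6 of 46 further genes of the pathway with a window: Psen2, Aph1a, Lfng, Spen, Hes7 and Hey2. Those of Lfng, the gene of this set whose groups did not overlap, and of Hey2, the other gene with 2 matches, are shown beside those of Hes5. The matches are shown with up to 10 bases on either side, read along the gene's strand, with the motif or its reverse complement in capitals.
Hes5, 226 bases before the start, chr4:154960687-154960713, forward strand: ggcgagcgcgTTCCCACagcccggaca
Hes5, 83 bases before the start, chr4:154960830-154960856, forward strand: gccgccgagtGTGGGAAcggccgcggc
Lfng, 109 bases before the start, chr5:140607222-140607248, forward strand: cgtatcccacGTGGGAAggagagatct
Hey2, 207 bases before the start, chr10:30842974-30843000, reverse strand: cgcggtggcaTTCCCACgcctctgcca
Hey2, 4 bases before the start, chr10:30842771-30842797, reverse strand: gggctgcagcGTGGGAAagaacctcca
In Hes5 and in Hey2 the 2 matches lay on opposite strands, with the reverse one farther from the start. CACNAG, the letters that Hes repressors bind, was found in 42.5% of all windows. The 8 genes had 11 windows. CACNAG was in those of Notch1, Notch2 and Notch3 and in only 1 of the 2 windows of Dll1 and of Hes6. A gene with several windows has more chances of a match, so counts of genes cannot be read against shares of windows. This holds for GTGGGAA too. The GATA motif, GATA preceded by A or T and followed by A or G on either strand, was in 29.8% of all windows and in no window of the 8 genes. A match of letters is a description of the window and no evidence of binding.

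Compared per kilobase of exon, which allows levels of different genes to be set side by side, the Hes genes and Jag1 were the most abundant. In control pools Hes6 was at 71.7 ± 24.7 CPM per kilobase, Jag1 at 47.6 ± 23.6, Hes1 at 46.5 ± 9.45 and Hes5 at 39.4 ± 13.5 (SD, n = 3). These neighbours in the order overlapped. Below Hes5 came a gap that no control value crossed, and then the receptors, Hey1, Dll1 and Rbpj, all with overlapping neighbours. Notch1 was at 17.6 ± 5.82 CPM per kilobase, Notch3 at 16.7 ± 0.772, Hey1 at 16.7 ± 2.01, Dll1 at 11.8 ± 3.83, Rbpj at 10.6 ± 3.51 and Notch2 at 9.16 ± 1.39. In CKO pools Hes6 was again the highest, at 76.0 ± 7.18 CPM per kilobase, followed by Hes1, Hes5 and Jag1, and Rbpj was the lowest, at 8.33 ± 0.691. The same 4 genes thus made up the upper part of the order in both groups. These levels use all annotated exons of a gene as its length, so a gene read mainly from a short isoform is placed too low.

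For most of the Notch genes the control pools lay farther apart than the group means, and the genes fell into sets by which control pool was high. Dll1, Hes5, Hes6, Notch1 and Rbpj were lowest in control replicate 2 and highest in control replicate 3, or 5 of the 10 genes, against 16.9% of all genes tested. Of the 24 retinal markers, 22 had the same order. Hes1 was also lowest in control replicate 2, which made 6 of the 10 genes, against 31.6% of all genes. Jag1 and Hey1 were highest in control replicate 2. The summed markers of lens fibres, lens epithelium, endothelium, mural cells, macrophages and blood were also highest there.

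**Figure D2:**
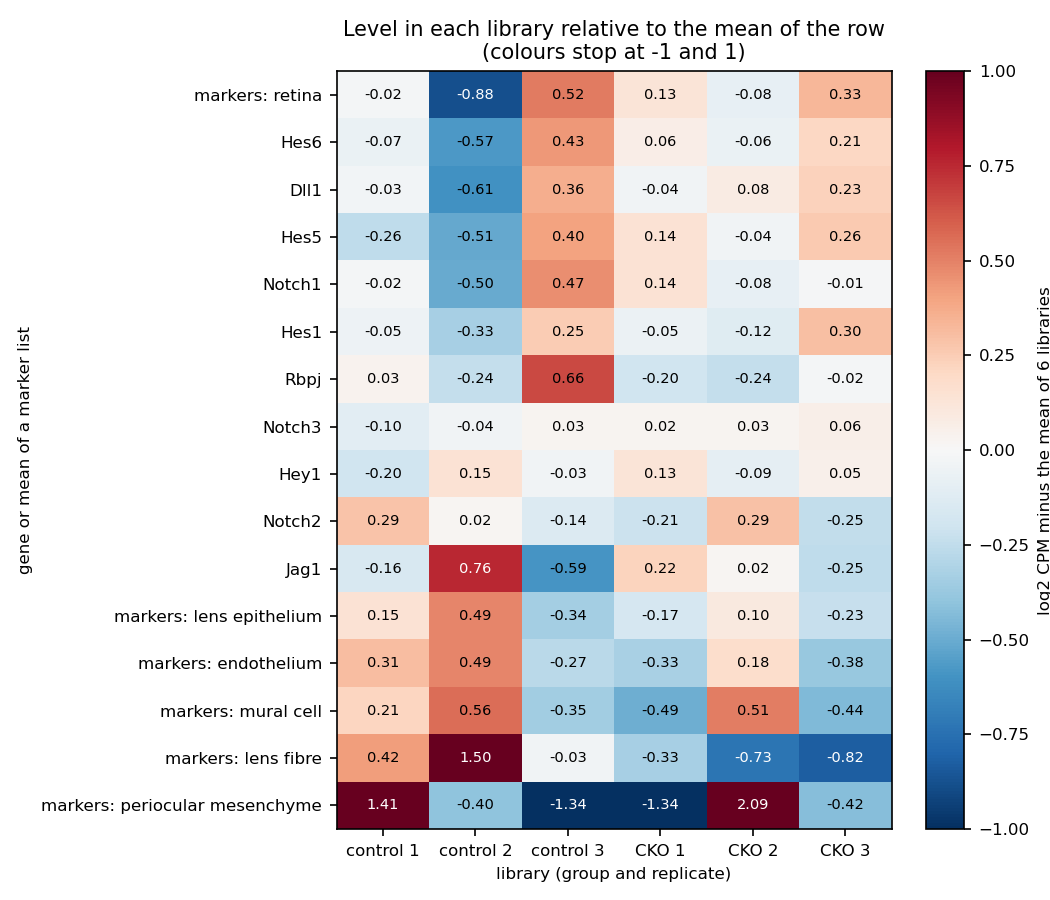
Level of each Notch pathway gene and of 6 marker lists (rows) in each library (columns), as log2 CPM minus the mean of the row over 6 libraries; a list is the mean of its genes, and colours stop at -1 and 1. Control replicate 2 is at -0.88 for the retinal markers and at -0.57 for Hes6, and at 0.76 for Jag1 and 1.5 for lens fibre markers.

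The 10 retinal progenitor markers summed to 2469, 1528 and 3175 CPM in control and to 2411, 2209 and 2956 CPM in CKO. The 14 retinal neuron markers summed to 1959, 962 and 3042 CPM in control and to 2288, 1893 and 2591 CPM in CKO. None of the 24 was at 0, and the ranges of both groups overlapped. All 24 had a log2 fold change above 0, with a median of 0.17 against 0.0019 over all genes tested and 0 under an unadjusted p of 0.05. Of the 6 Notch genes lowest in control replicate 2, Hes5, Dll1, Hes6 and Hes1 were on the same side, at 0.19, 0.13, 0.084 and 0.076. Notch1 and Rbpj were on the other side, at -0.016 and -0.35. As retinal tissue and lens tissue enter one RNA pool, fewer cells of a type and less RNA per cell cannot be told apart in these libraries.

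The likeness of a gene to a marker list was measured as the root mean square difference of their log2 CPM over the 6 libraries, each centred on its own mean. By this measure, given as a description, the retinal list was the nearest of 6 lists to Hes6 (0.14), Dll1 (0.16), Hes5 (0.19) and Notch1 (0.21). It was also nearest to Hes1 (0.26) and Rbpj (0.34), but both were nearer still to a level that did not change at all (0.22 and 0.31). The lens epithelium list was nearest to Jag1 (0.25), and the endothelium list to Notch2 (0.22), to which a constant level was about as near (0.22). Notch3 and Hey1 varied too little between libraries for a list to be nearer than a constant level.

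Single genes with the same profile were sought for the 3 Notch genes that varied most, among 12878 genes. Those nearest to Jag1 were Crim1, Ssx2ip and Slit3, with root mean square differences of 0.044, 0.059 and 0.059. Crim1, a membrane protein of the lens epithelium and other tissues, was at 620.1, 1212 and 480.0 CPM in control and at 831, 734 and 644 CPM in CKO, so that it shared the peak of Jag1 in control replicate 2. Those nearest to Hes5 were Dusp8, Dpf1 and Rasl10b, at 0.045, 0.050 and 0.055. Dpf1, a subunit of the neuronal BAF complex, was at 16.4, 12.8 and 24.4 CPM in control and at 21.9, 19.1 and 22.2 CPM in CKO. Rbpj had no gene as near, and its nearest were Ccdc36, Mapk12 and AI504432, at 0.090, 0.11 and 0.12, all present at 2.59 to 16.1 CPM.

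When the level of each gene was divided by the summed level of the 10 retinal progenitor markers of the same library, a scaling added after seeing the data, genes whose profile is near that of the retinal list come closer together by construction, so their values are a description. Hes6 came to 50.4, 57.4 and 55.6 CPM in control and to 56.6, 56.6 and 51.1 CPM in CKO for each 1000 CPM of the markers. Dll1 came to 20.4, 21.9 and 20.7 CPM in control and to 20.7, 24.5 and 20.3 CPM in CKO. Hes5 came to 19.1, 25.8 and 23.4 CPM in control and to 25.7, 24.8 and 22.9 CPM in CKO on this scale. Notch1 came to 97.8, 113 and 106 CPM in control and to 112, 105 and 82.2 CPM in CKO, so that its CKO pools were spread more widely than before. In all 4 genes the groups overlapped.

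Rbpj behaved differently on this scale. It came to 48.8, 65.2 and 58.4 CPM per 1000 CPM of retinal progenitor markers in control and to 42.5, 45.2 and 39.3 CPM in CKO. Control replicate 2, the lowest pool of Rbpj in CPM, was the highest on this scale, its marker sum being the lowest. All CKO pools were below all control pools, and Rbpj was the 1 gene of the 10 for which the groups separated, against 1.32% of all genes tested in either direction and 0.831% in this one (p = 0.1 in an exact permutation test, two-sided, which can give no smaller value). Jag1, which does not follow the retinal markers, was spread by this scaling from 53.6 to 283 CPM in control.

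**Figure D3:**
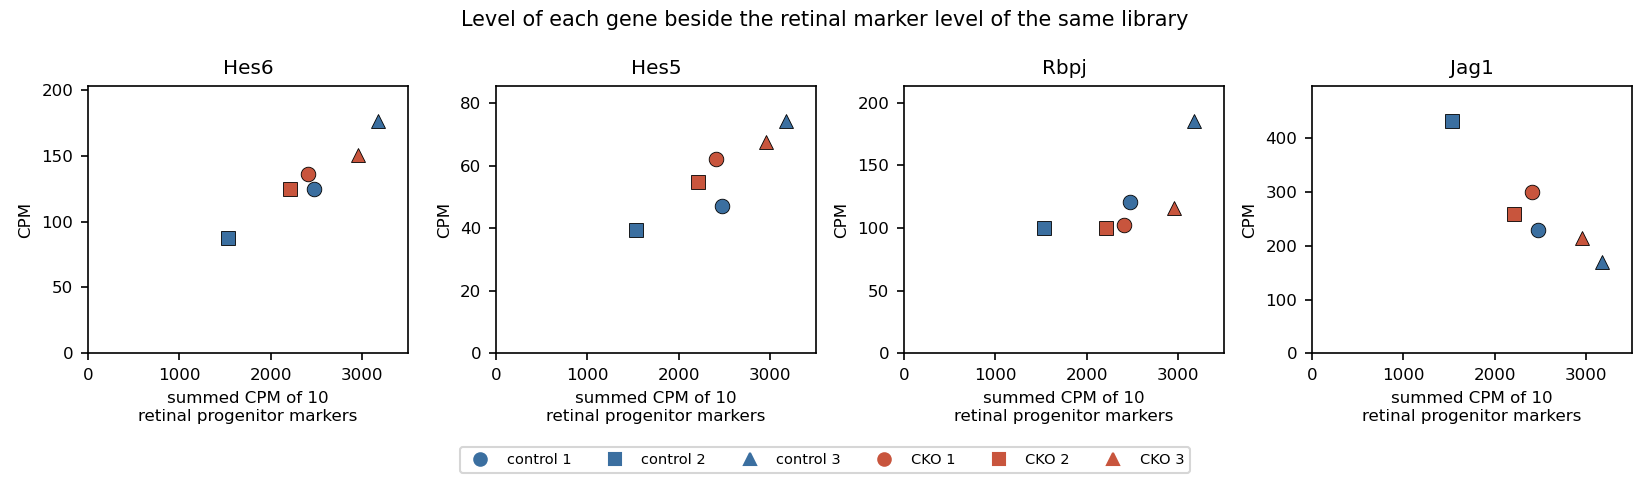
CPM of Hes6, Hes5, Rbpj and Jag1 (vertical axes) against the summed CPM of 10 retinal progenitor markers (horizontal axes) in the same library, with both axes linear and from 0; colours give the group and symbols the replicate. Control replicate 2 lies at 1528 CPM of the markers and control replicate 3 at 3175. For Rbpj, CKO replicate 1 (2411 CPM of the markers) lies below control replicate 1 (2469), and CKO replicate 3 (2956) below control replicate 3. No CKO pool lies near the marker level of control replicate 2, the lowest CKO pool being at 2209 CPM.

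The same was seen in edgeR with the mean log2 CPM of the 24 retinal markers as a covariate. In that fit Rbpj was lower in CKO by a log2 fold change of -0.46 (SE 0.084, adjusted p = 0.0352 over all genes), with a 95% interval from -0.65 to -0.27. It was the 1 gene of the 10 that passed, against 1.13% of all genes tested in either direction and 0.582% in this one. The call was not stable: the fold change stayed below 0 with each library left out, from -0.53 to -0.25, but the adjusted p-value was under 0.05 only without control replicate 1 (0.0241) and without CKO replicate 2 (0.0473), and it was 0.118 and 1.0 without control replicates 2 and 3, and 0.0975 and 0.260 without CKO replicates 1 and 3. With retinal neuron markers alone as the covariate it was -0.47 (adjusted p = 0.0516). The markers were measured in the same 6 libraries as Rbpj, and the fit without the covariate gave no call.

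Jag1 changed sign in this fit, to 0.25 (SE 0.11, unadjusted p = 0.0494, adjusted p = 0.635), so that with Rbpj 2 of the 10 passed an unadjusted p of 0.05, against 7.85% of all genes. With the mesenchyme markers as a further covariate, a fit added after seeing the data, Jag1 was at 0.27 (adjusted p = 0.0290 in edgeR). That fit left 2 residual degrees of freedom and called 451 of the 12879 genes tested. With the retinal covariate the other 8 genes lay between -0.12 (Notch1) and 0.085 (Hey1). The SE of Hes6 fell from 0.24 to 0.058 and that of Dll1 from 0.23 to 0.084. These are the genes nearest to the retinal list in the same libraries, so a smaller SE is partly built into this fit. For Hes6 the 95% interval was then -0.17 to 0.089, which describes its level at a given level of the retinal markers.

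**Figure D4:**
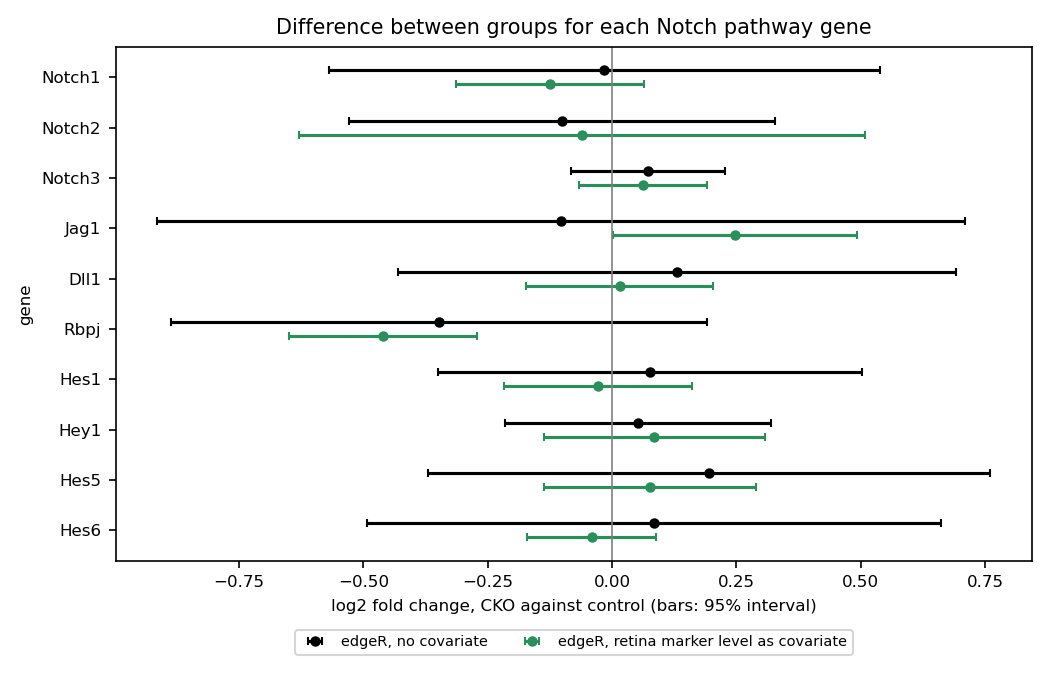
Log2 fold change of CKO against control (horizontal axis) with its 95% interval for each Notch pathway gene, in edgeR without a covariate (black) and with the retinal marker level as a covariate (green). All intervals without the covariate include 0, and with it the interval of Rbpj, -0.65 to -0.27, and that of Jag1, 0.00078 to 0.49, lie to one side of 0.

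A wider list of 59 genes of the pathway was read beside these, of which 54 were tested. In edgeR, 32 were higher and 22 lower in CKO, 0 passed an adjusted p of 0.05 and 2 an unadjusted one (3.55% of all genes did), with a median log2 fold change of 0.022 against 0.0019 over all genes. The groups did not overlap for 3 of the 54, against 8.36% of all genes: Lfng was higher in all CKO pools, and Notch4 and Adam10 were lower.

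Notch4, the receptor of vascular endothelium, was at 18.9, 27.7 and 23.6 CPM in control and at 15.9, 17.4 and 14.7 CPM in CKO. The difference was -0.55 on the log2 scale (SE 0.16, unadjusted p = 0.0120, adjusted p = 0.979). The sum of the 10 endothelial markers, none at 0, ranged from 301 to 393 CPM in control and from 268 to 342 CPM in CKO, and 9 of the 10 had a log2 fold change below 0. Their part in the value of Notch4 was not tested.

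Lfng, a Fringe enzyme that adds sugars to Notch receptors and so alters which ligand they answer, was at 43.3, 57.4 and 48.4 CPM in control and at 61.8, 63.4 and 59.9 CPM in CKO. Lfng differed by 0.31 on the log2 scale (SE 0.11, unadjusted p = 0.0288, adjusted p = 1.0), and by 0.37 with the retinal covariate (adjusted p = 0.114). The GTGGGAA match of Lfng was shown above because its groups did not overlap. Psen2, Aph1a and Spen, tested genes that also hold 1 match, had overlapping groups, at 0.076, 0.17 and -0.13. Hey2, with 2 matches, differed by -0.24 (SE 0.26) at 3.13 to 5.5 CPM. Whether a match goes with a difference was not tested. Adam10, the protease that makes the outer cut in the receptor, was at 316, 419.8 and 316 CPM in control and at 301, 278 and 280.0 CPM in CKO. The value for Adam10 was -0.29 (SE 0.13, unadjusted p = 0.0553), and -0.13 without control replicate 2, its highest pool.

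By role, 4 of the 6 other ligands were higher in CKO and 2 lower, with 0 under an unadjusted p of 0.05. Dlk1, an atypical ligand from an imprinted region, had the largest log2 fold change, 0.83 (SE 0.53), from 87.7 CPM in CKO replicate 2, one of the mesenchyme-rich pools, against 19.8 to 32.8 CPM in the other 5, and without that pool it was 0.0060. Of the 8 genes of receptor cleavage, which include the presenilins and nicastrin of γ-secretase, 5 were lower and 3 higher. Of 5 genes of receptor glycosylation, 4 were higher and 1 lower, and of 8 genes of receptor turnover, such as Numb and Itch, 6 were higher, Dtx2 with the largest value at 0.18 (SE 0.099).

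No difference was detected for the nuclear partners of Rbpj. Of 8 coactivators, among them the Mastermind genes and Ep300, 5 were higher and 3 lower, all within a log2 fold change of -0.15 (Kat2b) and 0.13 (Kat2a). Of 9 corepressors, 5 were higher and 4 lower, and Tle2, a Groucho corepressor, had the largest value at 0.43 (SE 0.42, 95% interval -0.58 to 1.43), which turned to -0.19 without CKO replicate 2. Of 6 further target genes, 3 were higher and 3 lower, and Bhlhe40, which responds to many signals, had the largest value at 0.36 (SE 0.21). Of 3 genes that ubiquitinate ligands, Mib2 had the largest value at 0.12 (SE 0.11). None of these passed the test at an unadjusted p of 0.05.

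**Figure D5:**
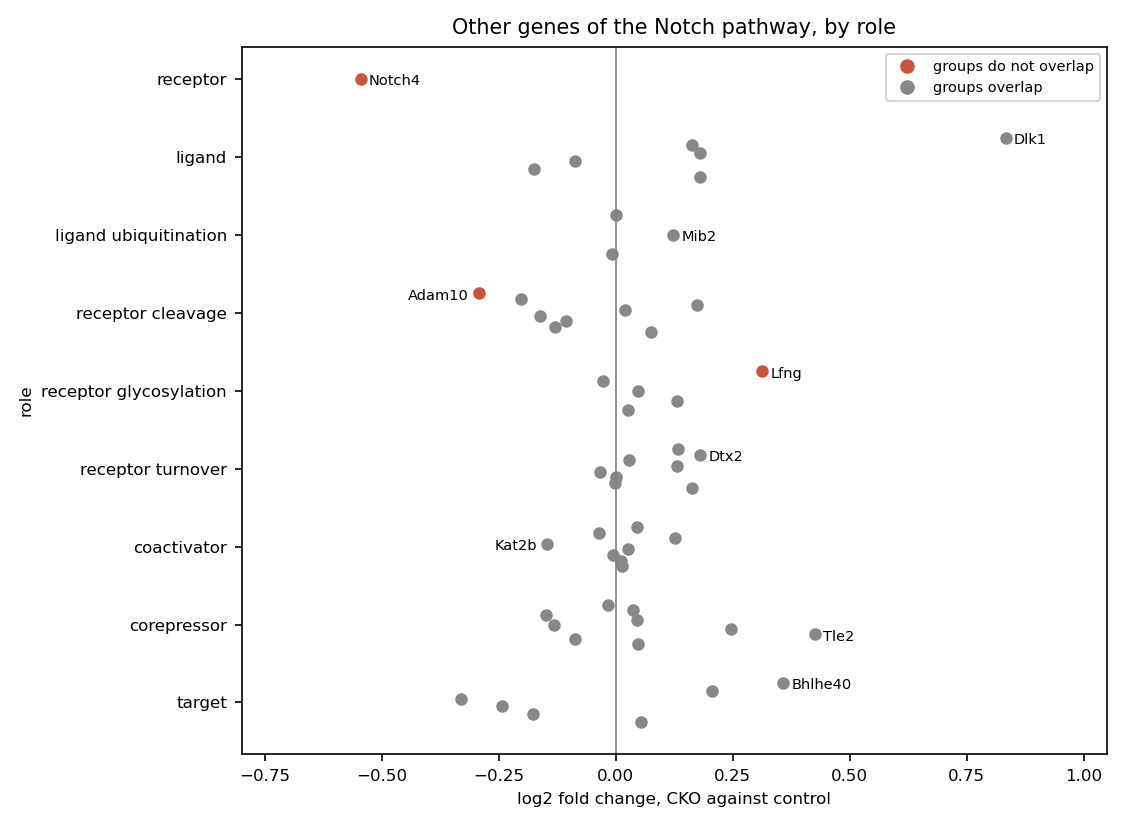
Log2 fold change of CKO against control (horizontal axis) for 54 further genes of the Notch pathway, grouped by role (vertical axis); each point is a gene, red where its control and CKO values do not overlap, and the named genes are those and the one with the largest change of each role. Notch4 at -0.55, Adam10 at -0.29 and Lfng at 0.31 are the 3 red points.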

How the data were processed

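RNA-Seq libraries of 6 lens pools, 3 control and 3 Gata3 CKO, were grouped and numbered by their GEO titles. The submitters' processing notes name Trim Galore. Per the study's methods, the authors aligned paired-end reads to mm10 with Tophat 2.0.13 and deposited raw counts per RefSeq gene from HTSeq 0.6.1 for genes with a mean FPKM above 1. The strand and overlap options of the counting are not given in the sources used here, so Notch1, Notch3, Dll1 and Hes5, which share exon bases with genes on the opposite strand, are less certain.

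Library sizes were scaled by TMM. The quasi-likelihood test of edgeR 4.0.16 in R 4.3.3, in its robust form, was run on genes that reached 10 counts in 3 or more libraries, and p-values were adjusted by Benjamini-Hochberg over all of them; limma 3.58.1 and DESeq2 1.42.0 were alternatives. The tests were tried on simulated data. Log2 CPM used a prior count of 1, and permutation tests an offset of 0.5 CPM. Gene positions and exon lengths came from GENCODE M21 and matched 12962 of 13024 genes, and promoters from RefSeq. The Notch genes, the marker lists and the wider list were chosen with earlier results of these data known. Named genes were the members, those of the wider list with an unadjusted p under 0.05, with separate groups or with the largest change of a role, the 3 nearest profiles of the 3 most variable members, and Gata3. Hey2, Psen2, Aph1a, Spen, Hes7 and Kat2a were named after their values were seen.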

Additional observations from a re-analysis of the deposited data

How the results depend on the processing

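Of 188 fold changes of the 10 Notch genes under 26 alternatives, 156 kept their direction and side of the threshold, 5 passed it without a change of sign, all for Rbpj, and 27 changed sign, among them Jag1 with retinal and mesenchyme levels together, which also passed it (adjusted p = 0.0290). Only Rbpj and Jag1 were read under all 26 alternatives, and the other genes under fewer. Rbpj changed sign in none, and Notch3 and Hes5 in none of the 17 under which each was read. Notch1 was 0.040 with limma voom, 0.0076 without crystallins in the library size, 0.0091 with the mesenchyme marker level as a covariate, and 0.020 with both mesenchyme-rich pools left out. With the retinal marker level as a covariate Hes1 was -0.028 and Hes6 -0.041, and Jag1 was 0.25. Chosen after seeing the data, the retinal progenitor level alone gave Jag1 0.21, the retinal neuron level alone 0.26, and retinal and mesenchyme levels together 0.27.

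The number of genes called, 0 in edgeR, was 85 with DESeq2, 78 with its prior on fold changes, 1 without crystallins in the library size, 146 with the retinal covariate, 154 and 123 with retinal progenitors or neurons alone, and 451 with retinal and mesenchyme levels together. Notch genes called were 1 with the retinal covariate, 1 with progenitors alone (Rbpj, adjusted p = 0.0377 in edgeR), and 2 with retinal and mesenchyme levels together (Rbpj, adjusted p = 0.00184, and Jag1). Notch genes with an unadjusted p under 0.05 were 2 with the retinal covariate, against 7.85% of all genes. They were 1 with progenitors alone, 1 with neurons alone, and 2 with both levels, where the share of all genes was not counted. Divided by the retinal progenitor sum, 1 gene had separate groups. In the wider list, 2 of 54 genes were under an unadjusted p of 0.05 in edgeR, against 3.55% of all genes tested. With the retinal covariate 11 were, against 7.85% of all genes, so the share rose over all genes as well. With both mesenchyme-rich pools left out 1 was, and Tle2 was -0.083. The share of all genes was not counted for that fit. Apart from the covariates, whose cause was not tested, no alternative called a Notch gene.

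Leaving out each library in turn called 0 to 1 genes and 0 Notch genes. It put 0 to 1 Notch genes (Rbpj without control replicate 2, Hes5 without control replicate 3) under an unadjusted p of 0.05. In the wider list 1 to 6 genes were under it. The share of all genes under it was not counted for these fits, so these counts cannot be read as particular to the Notch genes. The log2 fold changes were -0.21 to 0.26 for Notch1, -0.30 to 0.042 for Notch2, -0.36 to 0.38 for Jag1, -0.076 to 0.38 for Dll1, -0.51 to -0.051 for Rbpj, -0.068 to 0.24 for Hes1, -0.013 to 0.16 for Hey1, 0.028 to 0.51 for Hes5, -0.12 to 0.37 for Hes6 and -0.19 to 0.68 for Tle2. With the retinal covariate, leaving out libraries was added after seeing the data: it called 54, 77 and 4 genes without control replicates 1, 2 and 3, and 190, 190 and 43 without CKO replicates 1, 2 and 3. It called 0 to 1 Notch genes and put 1 to 2 Notch genes under an unadjusted p of 0.05. Among these were Notch2 without control replicate 2 and Hes5 without control replicate 3. For these fits too the share of all genes was not counted. Jag1 was at 0.23, 0.30 and 0.28 without control replicates 1, 2 and 3, and at 0.13, 0.35 and 0.27 without CKO replicates 1, 2 and 3.

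The replicate block called 0 genes and 0 Notch genes, left 0 Notch genes and 2 of the wider list under an unadjusted p of 0.05, and gave 0.035 for Notch1. The labels do not say that a number is shared between pools, and same-numbered pools deviated from their group means with correlations of -0.487, 0.0899 and 0.442, so the numbers were not taken as a pairing.

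With 3 pools a group, differences that are small beside a gene's SE could not be detected. Genes with few counts, such as Hey2, also carry counting error.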
